A study of Mus musculus with 18 samples.

Results

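RNA sequencing of a mouse chemical reprogramming course was examined by setting days 8 and 10 (D8 and D10) against days 2 and 4 (D2 and D4). Each day had 2 libraries, so 4 libraries stood on each side, 8 of the 18 in the series. Per the labels, the cells of D8 and D10 and those of D2 and D4 were all intermediates derived from mouse embryonic fibroblasts, a primary culture, taken at E13.5 from crosses of 129 and OG2 mice. OG2 mice carry a green fluorescent reporter driven by Pou5f1 regulatory sequence. The fibroblasts were moved to reprogramming medium the day after plating, and that medium was renewed every 2 days, and daily between days 4 and 8. Its composition is not given in the sources used here, so the compounds the cells met on each day cannot be listed. The remaining groups, 2 libraries each, were D0 fibroblasts, D6 and D12 cells, riPSC, which are induced pluripotent, and mESC, the embryonic stem line R1. They entered the filter on low values and the estimate of the spread, and D6, the day between the sides, is described after the gene groups. The labels do not say whether the 2 libraries of a day came from separate cultures, so the spread that p-values rest on is that of these libraries and may be technical.

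The levels were FPKM, fragment counts scaled to transcript length and to the library's mapped fragments, for 55401 genes. The comparison covered 16439 genes with at least 1 FPKM in 2 or more of the 18 libraries. Differences are means of D8 and D10 minus means of D2 and D4 on the log2(FPKM + 1) scale, ± standard error from limma, and adding 1 understates the change of low genes. A gene was called higher ("rose") or lower ("fell") where the sides differed 2-fold or more on that scale with a Benjamini-Hochberg adjusted p under 0.05. It counted as separated where all 4 libraries of D8 and D10 lay above, or all below, all 4 of D2 and D4.

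Mesenchymal cells such as fibroblasts lie loosely in matrix, move singly and hold their shape with vimentin filaments and contractile actin fibres. Epithelial cells form sheets, joined by E-cadherin, tight junctions and desmosomes, braced by keratin filaments and resting on a basement membrane of laminin and type IV collagen. The passage from the first to the second form, the mesenchymal-to-epithelial transition, is an early step known from the reprogramming of fibroblasts by transcription factors. The factors Snai1, Snai2, Zeb1, Zeb2, Twist1 and Twist2 are known repressors of epithelial genes, while the Grainyhead-like and Ovol factors favour them.

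The libraries differed in ways that touch every result below. Estimated depth was 16500000 to 20800000 read pairs in the D8 and D10 libraries, against 18200000 to 24600000 read pairs in 3 of the D2 and D4 libraries and 61000000 in D2 replicate 2. Transcripts of the mitochondrial genome took 50.2% to 52.4% of all FPKM at D8 and D10, against 6.42% to 34.1% at D2 and D4. Weighted by length, which is nearer to a share of reads, it was 11.1% to 11.98% at D8 and D10, against 0.951% to 5.94% at D2 and D4. Ribosomal protein genes took 5.09% to 5.64% at D8 and D10, against 14.3% to 23.4% at D2 and D4. The median absolute difference between the replicates of a day was 0.090 at D8 and 0.092 at D10, against 0.243 at D2 and 0.184 at D4. The median log2 difference was 0.69 in protein-coding genes whose exons add up to over 8000 bases, against -0.16 where they add up to 1000 to 2000 bases. The part of these properties in any single result was not tested beyond the rescaled counts given here. In bulk RNA, fewer cells of a kind and less RNA per cell cannot be told apart.

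A large share of the tested genes differed between the sides. Of the 16439 genes, 3630 rose (22.1%) and 2074 fell (12.6%), 5704 in all (34.7%). The counts of list members given below stand beside these shares. In 3547 of the higher genes (21.6% of those tested) and 1913 of the lower ones (11.6%) the libraries were also separated. Separation alone, whatever the size of the difference, held for 6493 genes on the higher side (39.5%) and 3374 on the lower side (20.5%). The balance of higher and lower genes depended on scaling. It was 2960 against 2480 with median-of-ratios scaling, 2404 against 2673 with quantile normalization, and 2356 against 2624 with the length trend removed. The median log2 difference of all tested genes was 0.23, and these scalings moved it to 0.12, -0.00 and 0.01. Of the separated higher genes, 1161 were under 1 FPKM in all 4 libraries of D2 and D4. Of the separated lower genes, 337 were under 1 FPKM in all 4 libraries of D8 and D10.

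**Figure D1:**
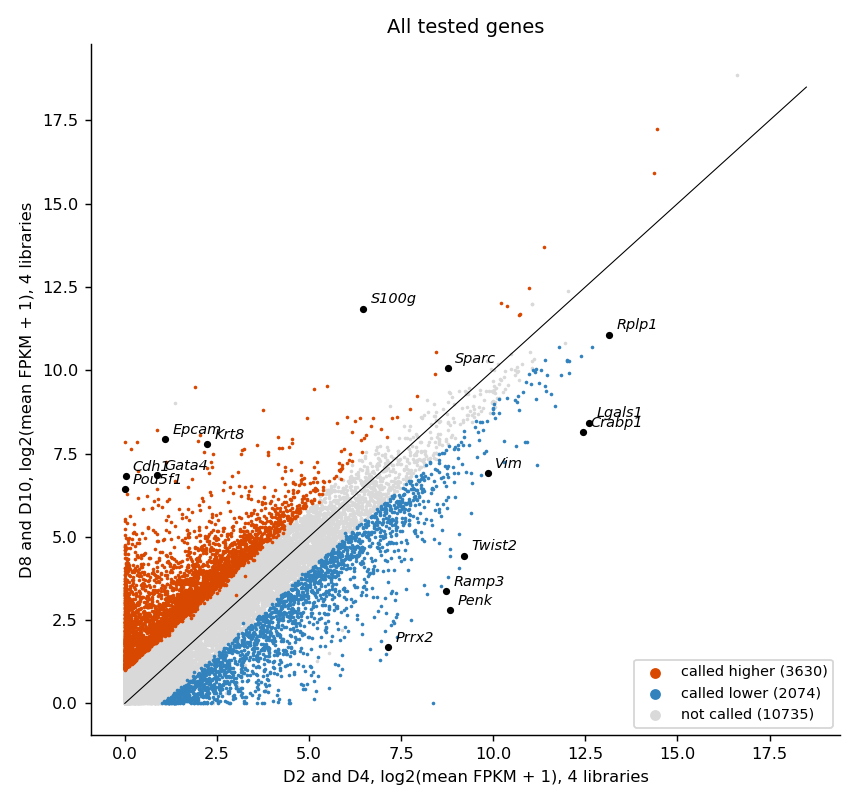
Mean level of each tested gene at D8 and D10 (vertical axis) and at D2 and D4 (horizontal axis), as log2(mean FPKM + 1) over 4 libraries a side, with genes called higher in orange, called lower in blue and not called in grey. The orange cloud of 3630 genes is densest at the left edge, where genes were near 0 FPKM at D2 and D4, while the 2074 blue genes spread over the whole range of levels.

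The genes that rose most, among those with at least 10 FPKM on the higher side, were not all epithelial. S100g, a vitamin D-dependent calcium-binding protein of gut and placenta, had 3702 and 3824 FPKM at D8 and 3677 and 3576 FPKM at D10, against 0.653 and 0.462 FPKM at D2 and 185 and 165 FPKM at D4. It was already above 100 FPKM in both D4 libraries and under 1 FPKM in both D2 libraries (log2 difference 7.80 ± 0.07, adjusted p = 1.49e-15). Dppa5a, a small RNA-binding protein of pluripotent cells, had 171 and 172 FPKM at D8 and 295 and 282 FPKM at D10, against 0.0116 and 0.00743 FPKM at D2 and 0 FPKM in both libraries at D4 (log2 difference 7.80 ± 0.09, adjusted p = 7.65e-15). The others near the top were the fatty acid carrier Fabp3 (7.78 ± 0.08), the pepsinogen Pgc (7.53 ± 0.09), the granule proteoglycan Srgn (7.49 ± 0.11) and the glutathione peroxidase Gpx2 (7.45 ± 0.07). Epcam, Cdh1 and Cldn6, described next, completed this group together with the predicted pseudogene Gm28439, whose level may hold reads of another gene. The call of Gm28439 was lost at D8 against D2 alone (2.19, adjusted p = 0.444) and D10 against D2 alone (2.14, adjusted p = 0.450). It was also lost when each side was pooled as 4 libraries (6.83, adjusted p = 0.0986).

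Among the genes that fell most, Penk, which encodes the enkephalin precursor, had 8.32 and 9.01 FPKM at D8 and 3.31 and 3.28 FPKM at D10, against 348 and 233 FPKM at D2 and 605 and 642 FPKM at D4 (log2 difference -6.04 ± 0.13, adjusted p = 9.90e-13). Ramp3, a partner of calcitonin-family receptors, had 15.1 and 15.9 FPKM at D8 and 3.00 and 3.15 FPKM at D10, against 360.1 and 351 FPKM at D2 and 525 and 454 FPKM at D4 (log2 difference -5.67 ± 0.10, adjusted p = 1.80e-13). For both, the D10 libraries were the lowest of the 8 and the sides were far apart. Igfbp6, an IGF-binding protein, had 2.54 to 7.38 FPKM at D8 and D10, against 126 to 299 FPKM at D2 and D4 (-5.28 ± 0.10), and Gap43, a growth-cone protein, 1.71 to 9.46 FPKM at D8 and D10, against 140.0 to 193 FPKM at D2 and D4 (-4.99 ± 0.13). By absolute amount, the galectin Lgals1 fell to 206 to 480.0 FPKM at D8 and D10, against 3195 to 9022 FPKM at D2 and D4 (-4.14 ± 0.09).

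Cell junction genes were near 0 at D2 and D4 and well expressed at D8 and D10. All 20 junction genes examined passed the filter, and all 20 rose and were separated. Their median log2 difference was 3.84, against 0.23 for all tested genes, of which 22.1% were called higher. Since genes near 0 on one side pass the filter only through the other, these counts describe the list and carry no test.

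Cdh1 (ENSMUSG00000000303, chromosome 8, 106603351 to 106670246 in mm10), which encodes E-cadherin, the adhesion protein of epithelial sheets, had 104 and 94.9 FPKM at D8 and 120.2 and 128 FPKM at D10, against 0.0364 and 0.0282 FPKM at D2 and 0 FPKM in both libraries at D4. The D2 and D4 libraries were at or next to 0, and both D10 libraries lay above both D8 libraries (log2 difference 6.79 ± 0.07, adjusted p = 3.07e-15). Epcam (ENSMUSG00000045394, chromosome 17, 87635979 to 87651129), an epithelial adhesion molecule, had 266 and 268 FPKM at D8 and 212 and 225 FPKM at D10, against 0.0189 and 0.143 FPKM at D2 and 2.37 and 2.01 FPKM at D4. It was the junction gene with the largest difference, and the D4 libraries already lay above 2 FPKM while the D2 libraries stayed below 0.2 FPKM (log2 difference 7.03 ± 0.08, adjusted p = 4.85e-15).

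The claudins, which seal the tight junction, were led by Cldn6, Cldn4 and Cldn7. Cldn6, a claudin of embryonic epithelia, had 113 and 120.3 FPKM at D8 and 127 and 140.3 FPKM at D10, against 0.137 and 0.979 FPKM at D2 and 0 FPKM in both libraries at D4 (log2 difference 6.68 ± 0.14, adjusted p = 5.15e-13). Cldn4 had 81.5 FPKM in both libraries at D8 and 69.0 and 73.0 FPKM at D10, against 0.0468 and 0.0703 FPKM at D2 and 0 and 0.0795 FPKM at D4 (log2 difference 6.1993 ± 0.07, adjusted p = 3.88e-15), and its 4 earlier libraries were all under 0.1 FPKM. Cldn7 had 23.3 and 24.0 FPKM at D8 and 33.9 and 37.9 FPKM at D10, against 0.272 and 0.102 FPKM at D2 and 0 and 0.192 FPKM at D4 (log2 difference 4.73 ± 0.10, adjusted p = 7.06e-13), higher at D10 than at D8. Cldn3 was opposite in that order, with the D10 libraries below the D8 ones, at 15.7 and 17.6 FPKM at D8 and 8.59 and 10.96 FPKM at D10, against 0.663 and 0.633 FPKM at D2 and 0.0356 and 0.0596 FPKM at D4 (log2 difference 3.39 ± 0.13, adjusted p = 1.44e-10). In a list of 19 claudins, 8 passed the filter and 6 of these rose (median 2.39). Cldn2 was listed at 0 in all 4 libraries of D2 and D4, against 1.30 to 1.98 FPKM in the D8 and D10 libraries (adjusted p = 3.84e-09). Cldn12 was the smallest of the 6 (1.01 ± 0.13) and lost its call without D2 replicate 2 (0.88), D4 replicate 1 (0.97), D8 replicate 1 (0.98) or D10 replicate 1 (just under 2-fold), while Cldn11 (0.70 ± 0.11) and Cldn15 (0.33 ± 0.10) were not called.

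Polarity and tricellular junction genes rose too. Crb3, which marks the apical membrane, had 35.6 and 31.7 FPKM at D8 and 36.4 and 34.2 FPKM at D10, against 0.103 and 0.0206 FPKM at D2 and 0.653 and 0 FPKM at D4 (log2 difference 4.92 ± 0.13, adjusted p = 4.62e-12). Lsr, a protein of the corners where 3 cells meet, had 60.2 and 58.1 FPKM at D8 and 57.6 and 58.8 FPKM at D10, against 0.167 and 0.342 FPKM at D2 and 1.7 and 1.82 FPKM at D4 (log2 difference 5.0039 ± 0.09, adjusted p = 1.64e-13). The 4 later libraries of each gene lay within a narrow band, and no earlier library reached 2 FPKM.

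Promoters of some junction and sorting genes are shown because they hold 2 or more copies of the E-box CACCTG, the letters that the Snail and Zeb repressors are known to bind. RefSeq promoter windows of 300 bases (250 before to 50 after the start, GRCm38.p6) were found for 37 member genes of the 4 epithelial lists. A gene with several windows was counted where any of them held the letters. CACCTG or its reverse complement CAGGTG was present in 27 of the 37 genes (73%), against 2429 of 11258 tested genes with a window (21.6%). It was present in 722 of 2565 separated higher genes with a window (28.1%) and 233 of 1294 separated lower ones (18%). A further 5 motifs were searched in the same way, with shares given for the epithelial list genes and for all tested genes with a window. TGACTCA, the AP-1 letters, was in 7 of the 37 (18.9%) and 4.73% of all, GGAATG, the TEAD letters, in 18.9% and 14.7%, and AGATAA, the GATA letters, in 10.8% and 7.95%. CCAAT, the NF-Y letters, was in 37.8% and 43.4%, and AACCGGTT, the Grainyhead letters, in 0 of the 37 and 0.284% of all. The median share of G and C was 60.7% in each of these 4 classes, and the listed genes were chosen with their values known. Overlaps with other motifs were not removed, and a match is not a binding site. In the sequences, capitals mark the E-box letters on either strand, and the last 50 bases lie after the start.
Crb3 promoter, chr17:57061951-57062250, plus strand: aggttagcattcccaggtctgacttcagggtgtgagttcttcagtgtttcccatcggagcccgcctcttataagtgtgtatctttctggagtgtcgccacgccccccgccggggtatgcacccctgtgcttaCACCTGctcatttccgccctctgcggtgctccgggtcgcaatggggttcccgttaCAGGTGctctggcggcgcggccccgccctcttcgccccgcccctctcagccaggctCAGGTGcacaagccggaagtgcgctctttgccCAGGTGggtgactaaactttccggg
Epcam promoter, chr17:87635729-87636028, plus strand: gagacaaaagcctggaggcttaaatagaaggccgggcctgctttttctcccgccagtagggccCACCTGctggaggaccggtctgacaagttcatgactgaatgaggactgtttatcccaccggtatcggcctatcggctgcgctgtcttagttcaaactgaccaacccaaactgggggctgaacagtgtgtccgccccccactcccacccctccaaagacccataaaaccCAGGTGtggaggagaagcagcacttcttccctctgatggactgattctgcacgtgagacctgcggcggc
Cldn4 promoter, chr5:134946885-134947184, minus strand: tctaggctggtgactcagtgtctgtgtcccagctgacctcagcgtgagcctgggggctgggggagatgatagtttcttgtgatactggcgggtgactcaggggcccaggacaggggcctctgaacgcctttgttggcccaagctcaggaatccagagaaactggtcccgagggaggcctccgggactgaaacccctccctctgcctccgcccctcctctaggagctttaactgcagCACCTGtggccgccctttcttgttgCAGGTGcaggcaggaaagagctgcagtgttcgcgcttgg
Ap1m2 promoter, chr9:21312284-21312583, minus strand: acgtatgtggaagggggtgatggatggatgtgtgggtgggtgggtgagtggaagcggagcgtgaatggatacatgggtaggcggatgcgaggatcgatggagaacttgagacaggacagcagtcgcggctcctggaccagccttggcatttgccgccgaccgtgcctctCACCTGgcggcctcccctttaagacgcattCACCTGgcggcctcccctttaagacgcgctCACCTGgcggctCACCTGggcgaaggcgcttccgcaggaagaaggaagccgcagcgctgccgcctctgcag
Spint2 promoter, chr7:29281928-29282227, minus strand: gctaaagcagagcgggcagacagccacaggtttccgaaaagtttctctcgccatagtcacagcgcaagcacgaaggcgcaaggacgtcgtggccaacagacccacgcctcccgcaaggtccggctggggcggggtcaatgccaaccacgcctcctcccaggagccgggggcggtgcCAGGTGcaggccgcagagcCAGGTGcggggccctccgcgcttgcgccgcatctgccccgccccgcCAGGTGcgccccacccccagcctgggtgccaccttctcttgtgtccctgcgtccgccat
Rab25 promoter, chr3:88548230-88548529, minus strand: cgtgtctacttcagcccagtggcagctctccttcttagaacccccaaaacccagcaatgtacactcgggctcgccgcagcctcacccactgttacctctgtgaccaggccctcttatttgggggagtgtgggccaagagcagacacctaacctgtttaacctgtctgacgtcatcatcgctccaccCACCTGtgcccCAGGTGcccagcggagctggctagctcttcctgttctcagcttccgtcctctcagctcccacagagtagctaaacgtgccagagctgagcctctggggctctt
Crb3 and Ap1m2 held 4 such hexamers each, Spint2 3, and Epcam, Cldn4 and Rab25 2 each. They were picked for these letters. Cgn, which encodes the tight junction protein cingulin, and Ovol2 are members of the same lists whose windows held none, and so did those of Twist2 and Twist1, which fell.
Cgn promoter, chr3:94786433-94786732, minus strand: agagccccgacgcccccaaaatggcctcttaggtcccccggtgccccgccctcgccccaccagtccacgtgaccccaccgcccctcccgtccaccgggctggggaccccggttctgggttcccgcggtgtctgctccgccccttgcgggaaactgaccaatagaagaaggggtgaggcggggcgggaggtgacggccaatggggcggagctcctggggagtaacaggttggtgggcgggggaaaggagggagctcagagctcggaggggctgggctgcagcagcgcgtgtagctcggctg
Ovol2 promoter, chr2:144331313-144331612, minus strand: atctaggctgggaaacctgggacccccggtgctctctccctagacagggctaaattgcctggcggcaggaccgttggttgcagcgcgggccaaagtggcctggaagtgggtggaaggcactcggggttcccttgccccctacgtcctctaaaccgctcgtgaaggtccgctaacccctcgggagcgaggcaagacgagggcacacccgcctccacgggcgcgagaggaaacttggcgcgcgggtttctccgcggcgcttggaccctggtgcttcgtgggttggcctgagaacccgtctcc
Twist2 promoter, chr1:91801211-91801510, plus strand: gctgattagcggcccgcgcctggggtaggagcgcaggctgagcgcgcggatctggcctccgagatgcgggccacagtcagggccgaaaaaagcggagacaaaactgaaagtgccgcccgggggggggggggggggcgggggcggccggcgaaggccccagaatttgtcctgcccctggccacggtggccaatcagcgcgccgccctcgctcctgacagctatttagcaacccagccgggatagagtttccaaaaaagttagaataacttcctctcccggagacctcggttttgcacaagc
Twist1 promoter, chr12:33957421-33957720, plus strand: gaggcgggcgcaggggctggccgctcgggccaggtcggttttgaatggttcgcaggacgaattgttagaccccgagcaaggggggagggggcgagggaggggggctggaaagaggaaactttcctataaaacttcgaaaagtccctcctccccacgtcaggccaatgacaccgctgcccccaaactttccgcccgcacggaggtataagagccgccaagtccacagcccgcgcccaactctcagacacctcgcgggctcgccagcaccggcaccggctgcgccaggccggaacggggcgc

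Genes for desmosomes and keratins followed the junctions. Of 14 listed, 13 passed the filter and 12 rose, all separated (median 2.65). Krt8, with Krt18 the first keratin pair of embryonic epithelia, had 220.1 and 216 FPKM at D8 and 211 and 226 FPKM at D10, against 2.89 and 4.15 FPKM at D2 and 4.18 and 3.6 FPKM at D4 (log2 difference 5.55 ± 0.09, adjusted p = 7.59e-14). Its partner Krt18 had 179 and 185 FPKM at D8 and 163 and 177 FPKM at D10, against 11.1 and 24.9 FPKM at D2 and 10.0 and 9.18 FPKM at D4 (log2 difference 3.69 ± 0.18, adjusted p = 1.37e-09), and its highest earlier library was D2 replicate 2. Dsg2 and Dsc2, the cadherins of the desmosome, rose likewise. Dsg2 had 24.1 to 30.7 FPKM at D8 and D10, against 0.012 to 0.141 FPKM at D2 and D4 (4.74 ± 0.06), and Dsc2 9.82 to 13.8 FPKM at D8 and D10, against 0.0759 to 1.72 FPKM at D2 and D4 (3.00 ± 0.10). Krt7, a keratin of simple epithelia, had 11.9 to 19.2 FPKM at D8 and D10, against 0.111 to 0.345 FPKM at D2 and D4 (3.75 ± 0.09). Jup, plakoglobin, which serves both desmosomes and adherens junctions, was not called, with 20.0 and 21.8 FPKM at D8 and 19.0 and 19.7 FPKM at D10, against 10.8 and 8.92 FPKM at D2 and 13.3 and 16.1 FPKM at D4 (log2 difference 0.69 ± 0.11, adjusted p = 0.000106). It was separated all the same, since no earlier library reached the lowest later one.

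Transcription factors of epithelial cells were 16 in the list, and 13 passed the filter. Of these, 12 rose and were separated, and 1 fell. Grhl2, which activates Cdh1 and claudin genes, had 6.49 and 5.64 FPKM at D8 and 4.72 and 4.74 FPKM at D10, against 0.007 and 0.0029 FPKM at D2 and 0 FPKM in both libraries at D4 (log2 difference 2.66 ± 0.07, adjusted p = 3.14e-12). Ovol2, a repressor of Zeb1, had 5.86 and 7.3 FPKM at D8 and 8.29 and 7.72 FPKM at D10, against 0 and 0.0658 FPKM at D2 and 0.276 and 0 FPKM at D4 (log2 difference 2.93 ± 0.12, adjusted p = 2.21e-10). Elf3, an Ets factor of simple epithelia, had 97.8 and 102 FPKM at D8 and 75.3 and 83.2 FPKM at D10, against 0.127 and 0.0571 FPKM at D2 and 4.91 and 3.94 FPKM at D4 (log2 difference 5.21 ± 0.10, adjusted p = 4.18e-13), with the D4 libraries between D2 and the later days. Klf5 was expressed on both sides, at 105 and 104 FPKM at D8 and 80.8 and 79.0 FPKM at D10, against 10.3 and 9.36 FPKM at D2 and 4.47 and 6.25 FPKM at D4 (log2 difference 3.48 ± 0.11, adjusted p = 2.80e-11). Cdx2 (4.24 ± 0.08) and Foxa2 (3.36 ± 0.11), factors of gut, trophoblast and endoderm, rose as well. The gene that fell was Tfap2c, a factor of trophoblast and surface ectoderm, with 3.46 and 3.92 FPKM at D8 and 0.56 and 0.497 FPKM at D10, against 6.68 and 2.78 FPKM at D2 and 7.07 and 10.09 FPKM at D4 (log2 difference -1.42 ± 0.18, adjusted p = 1.07e-05). Its sides overlapped, since both D8 libraries lay above D2 replicate 2.

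Membrane proteases and sorting genes of epithelia were 16 in the list, all tested, and 13 rose, all separated (median 3.24). Spint2, an inhibitor of membrane serine proteases, had 250.2 and 257 FPKM at D8 and 268 and 277 FPKM at D10, against 1.49 and 3.39 FPKM at D2 and 3.79 and 3.65 FPKM at D4 (log2 difference 6.06 ± 0.14, adjusted p = 1.13e-12). Its target St14, matriptase, had 31.0 to 38.0 FPKM at D8 and D10, against 0.745 to 2.01 FPKM at D2 and D4 (3.96 ± 0.09), and the protease Prss8 12.8 to 24.9 FPKM at D8 and D10, against 0 to 0.0894 FPKM at D2 and D4 (4.13 ± 0.09). Ap1m2, the epithelial subunit of a clathrin adaptor, had 45.7 and 42.6 FPKM at D8 and 52.6 and 52.4 FPKM at D10, against 0.194 FPKM in both libraries at D2 and 0 FPKM in both libraries at D4 (log2 difference 5.49 ± 0.09, adjusted p = 8.66e-14). Rab25, a recycling GTPase of epithelia, had 18.02 to 23.2 FPKM at D8 and D10, against 0.0858 to 0.336 FPKM at D2 and D4 (4.09 ± 0.10), and the sialomucin Podxl 179.7 to 198 FPKM at D8 and D10, against 1.42 to 5.43 FPKM at D2 and D4 (5.55 ± 0.07). The 3 not called were Prom1, Cd24a and Vil1. Prom1 was highest at D4, with 8.59 and 8.17 FPKM at D8 and 5.89 and 5.3 FPKM at D10, against 1.75 and 0.91 FPKM at D2 and 17.2 and 19.8 FPKM at D4, so that it was called lower at D10 against D4 alone (-1.56) and at D8 against D4 alone (-1.05).

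**Figure D2:**
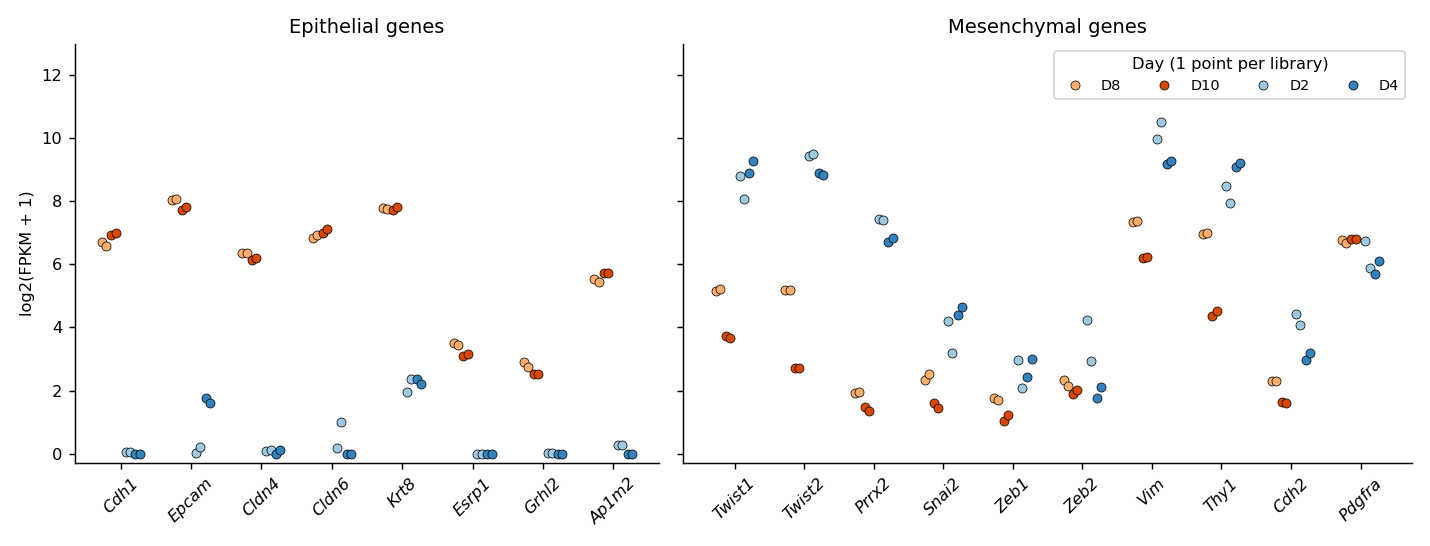
Level of 8 epithelial genes (left) and 10 mesenchymal genes (right) in every library, as log2(FPKM + 1), 1 point per library with D8 and D10 in orange left of D2 and D4 in blue. The epithelial genes show no overlap between the sides; on the right, Twist1, Twist2, Prrx2, Vim and Thy1 are lowest at D10, while the points of Zeb2 and Pdgfra overlap.

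Splicing regulators tied to the epithelial state split into risers and genes that were not called. All 12 listed were tested and 5 rose (median 0.85), beside 22.1% of all tested genes. With the length trend removed 4 rose and 2 fell (median 0.30). With median-of-ratios scaling 5 rose and 1 fell, and with quantile normalization 6 rose and 1 fell. Esrp1, which sets epithelial splicing of receptors and adhesion genes, was listed at 0 in all 4 libraries of D2 and D4, against 10.4 and 9.86 FPKM at D8 and 7.63 and 7.85 FPKM at D10 (adjusted p = 2.66e-13). Esrp2 had 12.21 and 12.09 FPKM at D8 and 16.2 and 17.8 FPKM at D10, against 0.0688 and 0.0443 FPKM at D2 and 0.0356 and 0.121 FPKM at D4 (log2 difference 3.85 ± 0.12, adjusted p = 2.89e-11). Rbm47 (3.39 ± 0.11), Mbnl2 (1.70 ± 0.20) and Qk (1.43 ± 0.16) were the other risers, and Qk is also known for mesenchymal splicing. The call of Qk was lost with the length trend removed (0.71). Rbfox2 was not called, at 13.2 to 18.9 FPKM at D8 and D10, against 14.3 to 21.8 FPKM at D2 and D4 (-0.14 ± 0.14). Ptbp1 (0.89 ± 0.13) and Hnrnpm (-0.98 ± 0.11) lay just inside the 2-fold limit, and leaving out D2 replicate 1 (1.00 and -1.06) or D4 replicate 2 (1.04 and -1.01) moved each across it.

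Mesenchymal transcription factors fell. Of 23 listed, 19 passed the filter, 14 fell, 12 of them separated, and 1 rose (median -1.62, against 0.23 for all tested genes, of which 12.6% were called lower). Twist2 (ENSMUSG00000007805, chromosome 1, 91801461 to 91848028), a basic helix-loop-helix factor of mesenchyme, had 35.7 FPKM in both libraries at D8 and 5.61 and 5.57 FPKM at D10, against 693 and 722 FPKM at D2 and 476 and 462 FPKM at D4 (log2 difference -5.21 ± 0.11, adjusted p = 4.61e-13). The D8 libraries were at a small part of the D2 and D4 levels and the D10 libraries lower again. Twist1 (ENSMUSG00000035799, chromosome 12, 33957671 to 33959829), its close relative, had 34.7 and 36.1 FPKM at D8 and 12.18 and 11.6 FPKM at D10, against 452 and 267 FPKM at D2 and 478 and 621 FPKM at D4 (log2 difference -4.33 ± 0.20, adjusted p = 1.05e-09). Prrx2, a homeobox factor of limb and skin mesenchyme, had 2.78 and 2.86 FPKM at D8 and 1.77 and 1.53 FPKM at D10, against 174 and 168 FPKM at D2 and 104 and 115 FPKM at D4 (log2 difference -5.44 ± 0.09, adjusted p = 8.72e-14).

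The Snail and Zeb factors differed less. Snai1 had 12.9 and 13.4 FPKM at D8 and 14.0 and 13.9 FPKM at D10, against 39.9 and 38.1 FPKM at D2 and 59.1 and 81.1 FPKM at D4 (log2 difference -1.86 ± 0.15, adjusted p = 2.00e-07), with D8 and D10 at one level. Snai2 had 3.99 and 4.77 FPKM at D8 and 2.03 and 1.74 FPKM at D10, against 17.4 and 8.09 FPKM at D2 and 20.0 and 24.3 FPKM at D4 (log2 difference -2.13 ± 0.18, adjusted p = 2.47e-07), and D2 replicate 2 was the nearest to the later libraries. Zeb1 had 2.42 and 2.24 FPKM at D8 and 1.04 and 1.33 FPKM at D10, against 6.76 and 3.25 FPKM at D2 and 4.43 and 6.99 FPKM at D4 (log2 difference -1.19 ± 0.19, adjusted p = 7.86e-05), and its call was lost without D2 replicate 1, at a log2 difference of -0.97. Zeb2 was not called, with 4.04 and 3.43 FPKM at D8 and 2.72 and 3.05 FPKM at D10, against 17.9 and 6.64 FPKM at D2 and 2.43 and 3.31 FPKM at D4 (log2 difference -0.67 ± 0.22, adjusted p = 0.0148). Its D4 libraries lay within or below the range of D8 and D10, and D2 replicate 1 stood far above all others. The gene that rose was Runx1, a factor of blood and of many epithelia, with 28.4 and 28.3 FPKM at D8 and 32.9 and 37.5 FPKM at D10, against 5.51 and 3.09 FPKM at D2 and 4.02 and 5.15 FPKM at D4 (log2 difference 2.60 ± 0.16, adjusted p = 1.87e-08). Foxf2 was not called (0.94 ± 0.24), but was called higher without D2 replicate 2 (1.33).

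Surface and filament genes of mesenchyme went in both directions. All 16 were tested, 8 fell, all separated, and 3 rose, 2 of them separated (median -1.27). With the length trend removed, 10 fell and 1 rose. Vim, vimentin, had 162 and 165 FPKM at D8 and 72.8 and 74.2 FPKM at D10, against 1015 and 1456 FPKM at D2 and 589 and 618 FPKM at D4 (log2 difference -2.95 ± 0.11, adjusted p = 1.79e-10). Thy1, a fibroblast surface glycoprotein, had 123 and 127 FPKM at D8 and 19.8 and 22.1 FPKM at D10, against 361 and 249 FPKM at D2 and 541 and 593 FPKM at D4 (log2 difference -2.98 ± 0.11, adjusted p = 9.21e-11), with D4 highest and D10 lowest. Cdh2, N-cadherin, had 3.92 and 3.97 FPKM at D8 and 2.12 and 2.06 FPKM at D10, against 20.5 and 15.8 FPKM at D2 and 6.81 and 8.11 FPKM at D4 (log2 difference -1.70 ± 0.12, adjusted p = 7.67e-08), and Cdh11, the cadherin of mesenchyme, 15.5 to 28.6 FPKM at D8 and D10, against 43.1 to 124 FPKM at D2 and D4 (-1.62 ± 0.29).

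The 3 that rose were Ly6a, Cd44 and Nt5e. Ly6a, Sca-1, a stem and progenitor antigen that interferon also induces, had 222 and 218 FPKM at D8 and 209.9 and 219.9 FPKM at D10, against 13.3 and 23.8 FPKM at D2 and 3.34 and 3.52 FPKM at D4 (log2 difference 4.58 ± 0.13, adjusted p = 1.02e-11). Cd44, the hyaluronan receptor, had 30.3 and 30.7 FPKM at D8 and 21.2 and 20.2 FPKM at D10, against 9.59 and 23.8 FPKM at D2 and 5.02 and 5.72 FPKM at D4 (log2 difference 1.36 ± 0.21, adjusted p = 5.71e-05), and D2 replicate 2 lay above both D10 libraries. Nt5e had 3.75 to 5.28 FPKM at D8 and D10, against 0.546 to 3.21 FPKM at D2 and D4 (1.30 ± 0.17). Pdgfra, a growth factor receptor of fibroblasts and of primitive endoderm, was not called, with 108 and 102 FPKM at D8 and 112 FPKM in both libraries at D10, against 105 and 58.6 FPKM at D2 and 50.5 and 67.7 FPKM at D4 (log2 difference 0.67 ± 0.16, adjusted p = 0.00248). D2 replicate 1 reached the later level and the other 3 earlier libraries did not.

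Among 15 cadherins that passed the filter, of 21 listed, 5 rose and 5 fell, 4 of each separated, beside 22.1% and 12.6% of all tested genes. With the length trend removed 3 rose and 7 fell, and with quantile normalization 4 rose and 6 fell. E-cadherin rose with P-cadherin Cdh3 (1.69 ± 0.12), VE-cadherin Cdh5 (2.86 ± 0.16), Cdh13 (1.30 ± 0.16) and Pcdh1 (1.49 ± 0.10). The libraries of Cdh13 overlapped, and Cdh13 (0.63) and Pcdh1 (0.88) lost their calls with the length trend removed. N-cadherin and Cdh11 fell with Cdh6 (-2.46 ± 0.18), Pcdh18 (-2.22 ± 0.21) and Pcdh10 (-1.01 ± 0.19). The call of Pcdh10 was lost without D2 replicate 1 (-0.73), D4 replicate 2 (-0.86) or D8 replicate 1 (-0.95).

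Contractile genes differed between the 2 D2 libraries as well as between the sides. All 18 were tested, 7 fell, all separated, and 2 rose (median -0.37), beside 12.6% and 22.1% of all tested genes. Acta2, smooth muscle actin, had 20.9 and 19.2 FPKM at D8 and 4.71 and 4.26 FPKM at D10, against 34.7 and 249.8 FPKM at D2 and 33.1 and 37.5 FPKM at D4 (log2 difference -2.45 ± 0.42, adjusted p = 0.000163). Tagln, transgelin, had 16.4 and 18.1 FPKM at D8 and 2.73 and 2.99 FPKM at D10, against 29.2 and 171 FPKM at D2 and 20.6 and 22.3 FPKM at D4 (log2 difference -2.26 ± 0.37, adjusted p = 0.000122). In both genes D2 replicate 2 stood far above D2 replicate 1 and both D4 libraries, which were close together. At D8 against D4 alone neither was called (Acta2 -0.79, adjusted p = 0.263, and Tagln -0.30, adjusted p = 0.645). Tagln also lost its call when each side was pooled as 4 libraries (-2.26, adjusted p = 0.05002). Without D2 replicate 2 the list held 7 that fell and 4 that rose (median -0.09), and the calls of Acta2 and Tagln were kept. Tpm2, a tropomyosin, had 14.4 and 15.6 FPKM at D8 and 7.02 and 6.00 FPKM at D10, against 441 and 516 FPKM at D2 and 80.5 and 62.7 FPKM at D4 (log2 difference -4.08 ± 0.14, adjusted p = 6.01e-11), and D4 lay between D2 and the later days. The risers were Amotl2 (2.81 ± 0.17) and Ccn2 (2.11 ± 0.18), both known targets of the coactivator YAP. Ccn1 (0.82 ± 0.22) and Ankrd1 (0.60 ± 0.28), which YAP also drives, were not called, and both were called higher without D2 replicate 2 (1.10 and 1.05).

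Interstitial matrix genes fell in part. All 26 were tested, 10 fell, 7 of them separated, and 3 rose (median -0.86). With the length trend removed, 16 fell and 1 rose. Col6a1 had 71.8 and 68.7 FPKM at D8 and 19.5 and 22.3 FPKM at D10, against 377 and 141 FPKM at D2 and 274 and 372 FPKM at D4 (log2 difference -2.79 ± 0.24, adjusted p = 3.57e-07), and Col6a2 fell too (-3.27 ± 0.21). Eln, elastin, was high at D4 alone, with 2.03 and 1.96 FPKM at D8 and 0.397 and 0.266 FPKM at D10, against 3.13 and 2.68 FPKM at D2 and 53.6 and 66.4 FPKM at D4 (log2 difference -2.95 ± 0.12, adjusted p = 4.05e-10). Col1a1, the main fibrillar collagen, was not called, with 97.1 and 93.6 FPKM at D8 and 94.8 and 99.6 FPKM at D10, against 68.6 and 98.2 FPKM at D2 and 342 and 464 FPKM at D4 (log2 difference -0.90 ± 0.16, adjusted p = 0.000173). Its D2 libraries lay around the later level and its D4 libraries far above it, and it was called lower without D2 replicate 1 (-1.03) or without D4 replicate 1 (-1.01). Col1a2, the partner chain, fell without overlap, with 40.3 to 49.95 FPKM at D8 and D10, against 81.2 to 241 FPKM at D2 and D4 (-1.56 ± 0.14). Sparc, a collagen-binding protein also made by parietal endoderm, rose with 927 and 890.4 FPKM at D8 and 1204 and 1236 FPKM at D10, against 278 and 285 FPKM at D2 and 534 and 648 FPKM at D4 (log2 difference 1.37 ± 0.10, adjusted p = 4.67e-08).

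Basement membrane genes moved the other way. Of 20 listed, 15 passed the filter, 9 rose, all separated, and 1 fell (median 1.75). The chains of laminin-111 rose together: Lama1 had 164 and 142 FPKM at D8 and 235 and 249.9 FPKM at D10, against 3.31 and 0.997 FPKM at D2 and 12.6 and 16.7 FPKM at D4 (log2 difference 4.84 ± 0.19, adjusted p = 1.67e-10). Lamb1 had 188 to 298 FPKM at D8 and D10, against 18.8 to 24.7 FPKM at D2 and D4 (3.40 ± 0.11) and Lamc1 131 to 251 FPKM at D8 and D10, against 5.08 to 13.1 FPKM at D2 and D4 (4.44 ± 0.23). The collagen chains Col4a1, with 589.7 and 547 FPKM at D8 and 793 and 851 FPKM at D10, against 27.4 and 30.9 FPKM at D2 and 32.5 and 46.5 FPKM at D4 (log2 difference 4.30 ± 0.12, adjusted p = 9.45e-12), and Col4a2, with 332 to 428 FPKM at D8 and D10, against 24.5 to 40.6 FPKM at D2 and D4 (3.64 ± 0.12), joined them. In each of these 5 genes both D10 libraries lay above both D8 libraries. Nid1, the linker nidogen, was not called (-0.00 ± 0.23), and Npnt, nephronectin, fell with overlapping libraries (-1.40 ± 0.15).

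Of the integrins, the matrix receptors, 16 of 18 listed were tested, 3 rose and 3 fell, near the shares over all tested genes (22.1% and 12.6%), and 5 fell with the length trend removed. The risers were Itga3 (2.17 ± 0.27), Itgb4 (2.05 ± 0.14) and Itgb6 (2.40 ± 0.09), while Itga6 (0.43 ± 0.34) and Itga7 (0.02 ± 0.09) were not called. Itgb5 had 16.6 to 20.4 FPKM at D8 and D10, against 64.2 to 193 FPKM at D2 and D4 (-2.64 ± 0.11), and Itga8 (-1.71 ± 0.22) and Itga1 (-1.23 ± 0.21) fell too, though Itga1 was not called without D2 replicate 1 (-0.90). Itgb1, the common chain, was not called, at 68.1 to 86.3 FPKM at D8 and D10, against 65.6 to 124 FPKM at D2 and D4 (-0.35 ± 0.15).

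**Figure D3:**
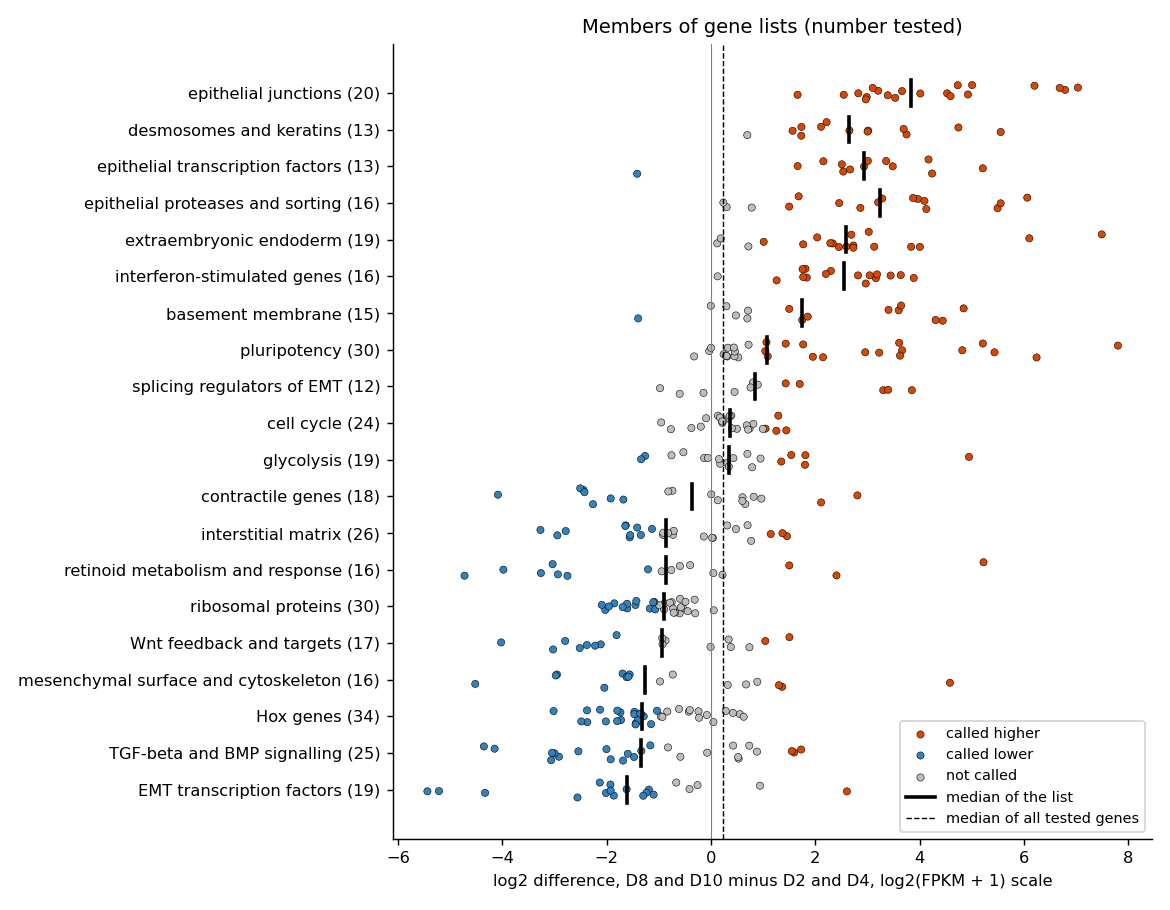
Log2 difference of each tested member of 20 gene lists, D8 and D10 minus D2 and D4, with members called higher in orange, called lower in blue and not called in grey. Thick bars mark the median of each list and the dashed line that of all tested genes, 0.23; the 4 epithelial lists at the top lie almost wholly to its right and the mesenchymal factors at the bottom almost wholly to its left.

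Extraembryonic endoderm genes were among the highest risers. This lineage, which lines the yolk sac, is marked by Gata4, Gata6 and Sox17, and cells like it are known from chemical reprogramming of mouse fibroblasts. Of 22 listed, 19 passed the filter and 16 rose, 14 of them separated (median 2.59). Gata4 (ENSMUSG00000021944, chromosome 14, 63198922 to 63271692) had 113 and 112 FPKM at D8 and 111 and 119 FPKM at D10, against 0.142 and 0.0583 FPKM at D2 and 1.22 and 1.92 FPKM at D4 (log2 difference 6.1004 ± 0.09, adjusted p = 2.84e-14). Gata6 had 34.7 and 36.0 FPKM at D8 and 49.9 and 50.2 FPKM at D10, against 3.7 and 2.77 FPKM at D2 and 3.57 and 6.29 FPKM at D4 (log2 difference 3.13 ± 0.13, adjusted p = 4.89e-10). Sox17 had 124.7 and 122 FPKM at D8 and 136 and 112 FPKM at D10, against 0.984 and 0.241 FPKM at D2 and 30.5 and 45.9 FPKM at D4 (log2 difference 4.00 ± 0.16, adjusted p = 2.83e-10), so that D4 stood well above D2 and still below the later days. The endocytic receptor Lrp2 (3.84 ± 0.06) and its adaptor Dab2 (3.02 ± 0.18), which take up nutrients in visceral endoderm, rose as well. Ttr (0.12 ± 0.12), Rbp4 (0.19 ± 0.13) and Apom (0.72 ± 0.11), secreted carriers of visceral endoderm, were not called, and Afp and Apob did not pass the filter.

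Pluripotency genes divided sharply. All 30 listed passed the filter, which counts the stem cell libraries. Of these, 17 rose, 16 of them separated, and 13 were not called (median 1.07), beside 22.1% higher among all tested genes. With median-of-ratios scaling 14 rose (median 0.98), and with quantile normalization 14 rose (median 0.68). Pou5f1 (ENSMUSG00000024406, chromosome 17, 35506018 to 35510772), Oct4, had 44.9 and 45.4 FPKM at D8 and 121 and 128 FPKM at D10, against 0 FPKM in both libraries at D2 and 0 and 0.0322 FPKM at D4 (log2 difference 6.24 ± 0.06, adjusted p = 3.07e-15). Both D10 libraries were above 100 FPKM and both D8 libraries below 50 FPKM. Esrrb had 33.1 and 28.5 FPKM at D8 and 40.0 and 45.4 FPKM at D10, against 0.019 and 0.0038 FPKM at D2 and 0 FPKM in both libraries at D4 (log2 difference 5.21 ± 0.08, adjusted p = 5.93e-14), and Klf4, which epithelia also express, 103 and 104 FPKM at D8 and 69.7 and 76.1 FPKM at D10, against 8.78 and 7.22 FPKM at D2 and 3.56 and 5.37 FPKM at D4 (log2 difference 3.66 ± 0.11, adjusted p = 1.56e-11). Tdgf1, the Nodal co-receptor, was listed at 0 in all 4 libraries of D2 and D4, against 33.6 to 52.8 FPKM at D8 and D10 (adjusted p = 8.36e-15).

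Nanog stayed near 0 on both sides, at 0.217 and 0.308 FPKM at D8 and 0.160 and 0.280 FPKM at D10, and was listed at 0 in every D2 and D4 library. Sox2 was not called, with 4.03 and 4.57 FPKM at D8 and 1.94 and 2.38 FPKM at D10, against 8.26 and 4.79 FPKM at D2 and 0.708 and 0.554 FPKM at D4 (log2 difference 0.24 ± 0.13, adjusted p = 0.12). D2 was the highest day for Sox2 and D4 the lowest, and D10 alone against D2 alone gave -1.22. Nodal (0.30 ± 0.07), Prdm14 (0.32 ± 0.07) and Dppa3 (0.45 ± 0.07) were not called either, each under 1 FPKM in all 8 libraries, and Otx2 and Fgf4 were listed at 0 at D8 and D10.

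Trophoblast genes gave no single direction. Of 9 tested of 11 listed, 3 rose and 2 fell (median 0.18, or -0.07 with quantile normalization and -0.10 with the length trend removed). The shares over all tested genes were 22.1% and 12.6%. The risers were Elf5 and the epithelial genes Cdx2 and Krt7 given above. Elf5, a trophoblast factor listed at 0 throughout D2 and D4, had 5.43 and 5.45 FPKM at D8 and 2.27 and 2.45 FPKM at D10 (adjusted p = 1.86e-10). Tfap2c, given above, and Plac1 (-1.05 ± 0.17) fell, though Plac1 was not called without D2 replicate 1 (-0.81). Gata3 (-0.07 ± 0.08) and Gata2 (0.18 ± 0.24) were not called.

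**Figure D4:**
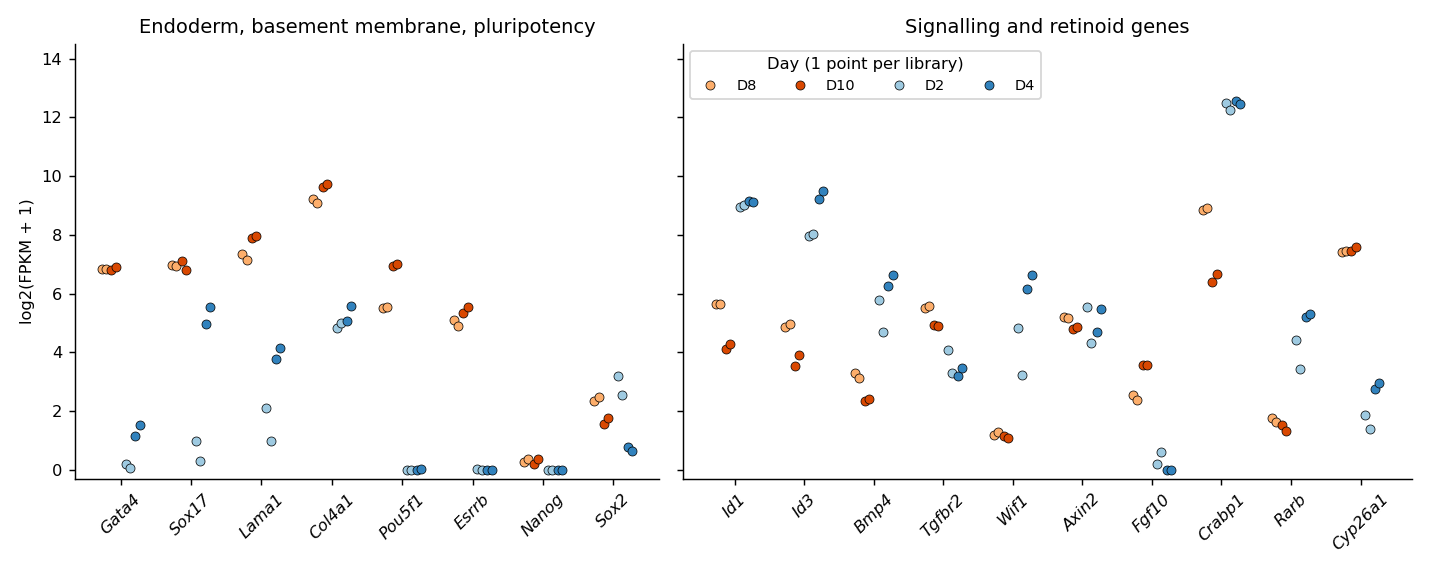
Level of 8 endoderm, basement membrane and pluripotency genes (left) and 10 signalling and retinoid genes (right) in every library, as log2(FPKM + 1), 1 point per library with D8 and D10 in orange left of D2 and D4 in blue. Gata4, Pou5f1 and Esrrb are near 0 at D2 and D4; Id1, Id3 and Crabp1 are lower at D8 and lowest at D10; Nanog, Sox2 and Axin2 were not called.

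BMP and TGF-beta genes were mostly lower. BMP ligands act through Smad1 and Smad5 to induce the Id genes, while TGF-beta and activin act through Smad2 and Smad3 and are known inducers of the mesenchymal state. Of 25 genes tested, 14 fell, 10 of them separated, and 3 rose (median -1.34). Bmp4 had 8.8 and 7.66 FPKM at D8 and 4.13 and 4.35 FPKM at D10, against 54.3 and 24.7 FPKM at D2 and 75.9 and 98.7 FPKM at D4 (log2 difference -3.05 ± 0.26, adjusted p = 3.54e-07). The Id genes, inhibitors of helix-loop-helix factors, fell further. Id1 had 48.8 and 49.0 FPKM at D8 and 16.2 and 18.3 FPKM at D10, against 495 and 515 FPKM at D2 and 567 and 562 FPKM at D4 (log2 difference -4.15 ± 0.13, adjusted p = 1.97e-11), and Id3 had 27.8 and 30.2 FPKM at D8 and 10.6 and 13.9 FPKM at D10, against 249 and 258 FPKM at D2 and 590.3 and 714 FPKM at D4 (log2 difference -4.35 ± 0.14, adjusted p = 2.66e-11). The ligand Tgfb3 (-2.92 ± 0.15) and the activin chain Inhba (-3.00 ± 0.23) fell as well. The 3 risers were the receptors Tgfbr2, with 44.8 and 47.2 FPKM at D8 and 29.5 and 29.1 FPKM at D10, against 16.1 and 8.82 FPKM at D2 and 8.14 and 9.97 FPKM at D4 (log2 difference 1.73 ± 0.15, adjusted p = 3.56e-07), Tgfbr3 (1.59 ± 0.14) and Bmpr1a (1.55 ± 0.16).

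Of 17 Wnt feedback genes and targets, all tested, 8 fell, all separated, 7 were not called and 2 rose (median -0.93). With median-of-ratios scaling or quantile normalization 11 fell and 1 rose. Without D2 replicate 2, 11 fell and 1 rose. The secreted inhibitor Wif1 had 1.31 and 1.47 FPKM at D8 and 1.22 and 1.1 FPKM at D10, against 27.1 and 8.28 FPKM at D2 and 69.9 and 99.2 FPKM at D4 (log2 difference -4.02 ± 0.25, adjusted p = 1.80e-08). Nkd1, an inhibitor acting on Dishevelled, had 19.2 and 19.5 FPKM at D8 and 10.13 and 10.9 FPKM at D10, against 138 and 50.3 FPKM at D2 and 155 and 216 FPKM at D4 (log2 difference -3.03 ± 0.24, adjusted p = 1.55e-07), and the factor Lef1 had 1.09 to 3.66 FPKM at D8 and D10, against 10.5 to 19.7 FPKM at D2 and D4 (-2.38 ± 0.18). Axin2, the most general Wnt target, was not called and its libraries overlapped, at 36.1 and 34.9 FPKM at D8 and 26.6 and 28.0 FPKM at D10, against 45.6 and 19.0 FPKM at D2 and 25.0 and 43.9 FPKM at D4 (-0.01 ± 0.22). The 2 risers, Rnf43 (1.5022 ± 0.11) and Znrf3 (1.04 ± 0.13), encode ligases that remove Wnt receptors, and Znrf3 lost its call without D2 replicate 2 (0.91).

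Of 14 listed receptor tyrosine kinases, 12 were tested, 3 rose and 2 fell, near the shares over all tested genes (22.1% and 12.6%). Fgfr4 had 16.9 and 15.4 FPKM at D8 and 21.6 and 24.1 FPKM at D10, against 0.485 and 0.207 FPKM at D2 and 0.89 and 0.836 FPKM at D4 (log2 difference 3.68 ± 0.09, adjusted p = 2.38e-12), while Fgfr1, the receptor of mesenchyme, had 10.3 and 10.6 FPKM at D8 and 4.57 and 5.2 FPKM at D10, against 34.8 and 39.5 FPKM at D2 and 29.3 and 42.6 FPKM at D4 (log2 difference -2.18 ± 0.15, adjusted p = 4.00e-08). Kit (3.13 ± 0.13) and Erbb3 (2.46 ± 0.08) rose and Pdgfrb (-1.56 ± 0.11) fell, while Egfr (0.19 ± 0.16) and Erbb2 (0.64 ± 0.10) were not called. Of 13 ligands tested of 19 listed, 5 rose, beside 22.1% of all tested genes. With median-of-ratios scaling 3 rose, with the length trend removed 2 rose, and with quantile normalization 2 rose and 1 fell. Fgf10 had 4.83 and 4.16 FPKM at D8 and 10.9 FPKM in both libraries at D10, against 0.144 and 0.529 FPKM at D2 and 0 FPKM in both libraries at D4 (log2 difference 2.81 ± 0.15, adjusted p = 3.88e-09), and Tgfa 4.27 to 6.04 FPKM at D8 and D10, against 0 to 0.122 FPKM at D2 and D4 (2.54 ± 0.06). Hgf (1.05 ± 0.09) and Nrg1 (1.12 ± 0.13) were smaller, and the call of Hbegf (1.30 ± 0.38) was lost without D2 replicate 1 (0.70). Fgf4 and Fgf17 were listed at 0 at D8 and D10, and Fgf4 at 0 in 3 of the earlier libraries.

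Ephrins and Eph receptors, which sort cells at boundaries, numbered 17 tested of 19 listed, with 6 higher and 3 lower, or 5 lower without D2 replicate 2 or with median-of-ratios scaling. Over all tested genes, 22.1% were called higher and 12.6% lower. Epha4 had 17.3 and 16.5 FPKM at D8 and 13.8 and 14.2 FPKM at D10, against 0.556 and 0.25 FPKM at D2 and 0.905 and 1.06 FPKM at D4 (log2 difference 3.30 ± 0.11, adjusted p = 3.60e-11), and Epha1 (3.00 ± 0.13), Ephb2 (1.66 ± 0.10), Ephb3 (1.60 ± 0.10), Efna1 (2.39 ± 0.20) and Efna3 (1.59 ± 0.14) rose with it. Of those that fell, Efna2 had the largest difference, with 1.65 to 2.88 FPKM at D8 and D10, against 4.88 to 13.2 FPKM at D2 and D4 (-1.55 ± 0.14).

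Retinoid genes showed falling carriers and receptors beside a rising degrading enzyme. Of 16 tested of 17 listed, 7 fell, 6 of them separated, and 3 rose (median -0.85). Crabp1, a cytosolic retinoic acid carrier, had 459 and 482 FPKM at D8 and 84.1 and 101 FPKM at D10, against 5802 and 4851 FPKM at D2 and 6009 and 5571 FPKM at D4 (log2 difference -4.72 ± 0.09, adjusted p = 2.99e-13). Its relative Crabp2 had 4.68 to 7.7 FPKM at D8 and D10, against 81.9 to 162 FPKM at D2 and D4 (-3.98 ± 0.16). The receptors Rarb and Rarg fell, Rarb with 1.49 to 2.41 FPKM at D8 and D10, against 9.93 to 38.6 FPKM at D2 and D4 (-3.04 ± 0.18) and Rarg with 2.75 to 5.75 FPKM at D8 and D10, against 28.8 to 38.1 FPKM at D2 and D4 (-2.75 ± 0.14). Cyp26a1, which breaks down retinoic acid, had 168 and 173 FPKM at D8 and 175 and 192 FPKM at D10, against 2.67 and 1.65 FPKM at D2 and 5.74 and 6.86 FPKM at D4 (log2 difference 5.22 ± 0.10, adjusted p = 2.34e-13), whereas Cyp26b1 (-0.95 ± 0.21) was not called, and was called lower without D2 replicate 2 (-1.22) or D4 replicate 1 (-1.03). The synthesis enzymes Aldh1a1 (1.4991 ± 0.09) and Aldh1a3 (2.40 ± 0.24) rose.

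Hox genes, which record position along the body, fell or were not called. Of 34 tested of 39 listed, 20 fell, 19 of them separated (median -1.32). Hoxc5 had 3.36 and 2.82 FPKM at D8 and 5.4 and 5.62 FPKM at D10, against 51.1 and 26.6 FPKM at D2 and 37.3 and 54.3 FPKM at D4 (log2 difference -3.02 ± 0.43, adjusted p = 3.67e-05), and Hoxa11 (-2.49 ± 0.16), Hoxb6 (-2.38 ± 0.10) and Hoxa5 (-2.37 ± 0.12) fell likewise. Hoxc4 (0.42 ± 0.18), next to Hoxc5 in the cluster, was not called, with 7.59 to 8.93 FPKM at D8 and D10, against 4.17 to 8.13 FPKM at D2 and D4.

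All 24 cell cycle genes listed were tested and 4 rose, all separated, near the 22.1% of all tested genes: Cdt1 (1.44 ± 0.12), Ccnb1 (1.29 ± 0.18), Bub1 (1.25 ± 0.17) and Mcm4 (1.04 ± 0.19). The median was 0.37. With median-of-ratios scaling 3 rose and 1 fell (median 0.19), and with the length trend removed 2 rose and 1 fell (median 0.17). Mcm4 lost its call without D2 replicate 2 (0.93) or D4 replicate 1 (0.95). Mki67, a marker of cycling cells, was not called, with 12.8 and 11.5 FPKM at D8 and 14.3 and 15.1 FPKM at D10, against 7.51 and 7.14 FPKM at D2 and 8.29 and 8.16 FPKM at D4 (0.71 ± 0.07), although no earlier library reached a later one.

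Inhibitors of cyclin-dependent kinases and p53 targets, 18 tested, gave 7 higher and 6 lower, or 2 and 7 with median-of-ratios scaling and 4 and 7 without D2 replicate 2. Over all tested genes, 22.1% were called higher and 12.6% lower. Cdkn1c, p57, had 16.2 and 16.1 FPKM at D8 and 9.45 and 9.25 FPKM at D10, against 284 and 220.5 FPKM at D2 and 610.0 and 622 FPKM at D4 (log2 difference -4.88 ± 0.09, adjusted p = 2.78e-13). Cdkn2a (-2.24 ± 0.10), Cdkn2b (-1.79 ± 0.11) and Cdkn2d (-1.71 ± 0.09) fell with it, and Cdkn1b rose, with 12.18 to 13.7 FPKM at D8 and D10, against 3.83 to 8.31 FPKM at D2 and D4 (1.13 ± 0.19). Among p53 targets, Bax (-2.73 ± 0.09) and Phlda3 (-1.63 ± 0.07) fell, Trp53inp1 (2.54 ± 0.26), Sesn2 (1.495 ± 0.18) and Gdf15 (1.13 ± 0.14) rose, and Cdkn1a was not called, with 66.8 to 136 FPKM at D8 and D10, against 94.5 to 259 FPKM at D2 and D4 (-0.51 ± 0.17).

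Enzymes of glycolysis, 19 tested, gave 5 higher and 2 lower (median 0.34), near the shares over all tested genes (22.1% and 12.6%). With quantile normalization 7 rose and 1 fell (median 0.79), with the length trend removed 4 rose and 3 fell (median 0.17), and with median-of-ratios scaling the median was 0.16. The glucose transporters rose most. Slc2a3, a high-affinity transporter of embryonic cells, had 163 and 167 FPKM at D8 and 138 and 141 FPKM at D10, against 5.86 and 2.89 FPKM at D2 and 3.36 and 4.17 FPKM at D4 (log2 difference 4.94 ± 0.22, adjusted p = 7.55e-10), and Slc2a1 had 43.5 to 67.2 FPKM at D8 and D10, against 9.05 to 21.5 FPKM at D2 and D4 (1.80 ± 0.17). Hk1 (1.35 ± 0.11) and Hk2 (1.54 ± 0.14) rose, Pkm (-1.34 ± 0.07) and Pfkm (-1.26 ± 0.09) fell, and Ldha (-0.06 ± 0.11) and Gapdh (0.34 ± 0.22) were not called.

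DNA methylation genes, 10 tested, gave 2 higher, near the 22.1% of all tested genes, and 1 with quantile normalization or with the length trend removed. Dnmt3b had 5.71 and 5.27 FPKM at D8 and 7.56 and 7.74 FPKM at D10, against 0.312 and 0.277 FPKM at D2 and 1.07 and 1.36 FPKM at D4 (log2 difference 2.15 ± 0.07, adjusted p = 3.57e-11), and Tet2 2.01 to 4.85 FPKM at D8 and D10, against 0.306 to 1.21 FPKM at D2 and D4 (1.29 ± 0.15). Dnmt1 (0.23 ± 0.15), Dnmt3a (-0.13 ± 0.16), Tet1 (0.45 ± 0.09) and Uhrf1 (0.41 ± 0.11) were not called.

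Of 30 ribosomal protein genes tested, 13 fell, all separated (median -0.90), but with quantile normalization 4 fell and the median was -0.12. Rplp1 had 2249 and 2265 FPKM at D8 and 1961 and 2100.3 FPKM at D10, against 10994 and 12206 FPKM at D2 and 7574 and 5690.0 FPKM at D4 (log2 difference -2.03 ± 0.14, adjusted p = 3.29e-08). These genes have many near-identical processed copies, and pseudogenes of Rpl35a were themselves among the genes that fell most, so the division of reads among copies is uncertain. Genes of the mitochondrial genome, 10 tested of 13 listed, gave 6 higher and 1 lower, and here too nuclear copies share the reads. Over all tested genes, 22.1% were called higher and 12.6% lower. Differences in this list ran from -4.64 to 3.06, and the libraries of the gene that fell overlapped. mt-Co1 had 12557 to 14157 FPKM at D8 and D10, against 1653 to 4422 FPKM at D2 and D4 (2.42 ± 0.35) and mt-Cytb 4004 to 4409 FPKM at D8 and D10, against 349 to 2566 FPKM at D2 and D4 (2.16 ± 0.40). With mitochondrial genes left out and the rest rescaled, 3808 genes were higher and 1946 lower.

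Interferon-stimulated genes were higher at D8 and D10. Of 17 listed, 16 passed the filter and 15 rose, all separated (median 2.56). Bst2, tetherin, had 285 and 297 FPKM at D8 and 213 and 221 FPKM at D10, against 9.59 and 15.4 FPKM at D2 and 22.5 and 19.8 FPKM at D4 (log2 difference 3.88 ± 0.12, adjusted p = 2.62e-11). Irf7, the factor that amplifies interferon responses, had 8.1 to 10.4 FPKM at D8 and D10, against 0.048 to 0.241 FPKM at D2 and D4 (3.16 ± 0.18), Isg15 10.96 to 15.8 FPKM at D8 and D10, against 0.168 to 0.454 FPKM at D2 and D4 (3.44 ± 0.10) and Irf9 18.1 to 20.96 FPKM at D8 and D10, against 0.942 to 2.25 FPKM at D2 and D4 (3.04 ± 0.09). Ifit3 was not called, with 3.33 to 6.11 FPKM at D8 and D10, against 3.39 to 5.08 FPKM at D2 and D4 (0.13 ± 0.10).

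Markers of other cell types that the cultures could hold differed by type, with the endothelial sum higher and the neural sum lower at D8 and D10. The few called markers of each type stand beside 22.1% higher and 12.6% lower among all tested genes. The 13 myeloid markers summed to 12.3 to 13.9 FPKM at D8 and D10, against 8.91 to 20.4 FPKM at D2 and D4, and 10 were tested, of which Cd68 rose (1.15 ± 0.18), a call lost without D4 replicate 1 (0.96), and Lyz2 fell (-2.12 ± 0.15). Ptprc, Adgre1 and Itgam, the defining markers, stayed under 0.1 FPKM in all 8 libraries. The 9 endothelial markers summed to 65.8 to 77.4 FPKM at D8 and D10, against 7.53 to 17.7 FPKM at D2 and D4, and of 7 tested 5 rose and 1 fell. Flt1, which trophoblast also expresses, had 36.7 to 45.9 FPKM at D8 and D10, against 0.69 to 2.12 FPKM at D2 and D4 (4.22 ± 0.09) and Tek 5.31 to 8.74 FPKM at D8 and D10, against 0.0465 to 0.519 FPKM at D2 and D4 (2.64 ± 0.08), while Kdr fell to 0.219 to 0.564 FPKM at D8 and D10, against 3.59 to 11.7 FPKM at D2 and D4 (-2.28 ± 0.24). Pecam1 (1.27 ± 0.07) stayed at or below 2.28 FPKM, Emcn and Cldn5 did not pass the filter, and Cdh5 is given above. The 10 muscle markers summed to 4.18 to 13.1 FPKM at D8 and D10, against 17.8 to 23.4 FPKM at D2 and D4, with 3 of 6 tested lower and Myod1, Myf5 and Myf6 under 1 FPKM throughout. The 9 neural markers summed to 4.77 to 16.6 FPKM at D8 and D10, against 71.4 to 80.9 FPKM at D2 and D4. They include Nes, which is also counted among the mesenchymal surface and filament genes that fell. Its mean was 4.64 FPKM at D8 and D10, against 21.6 FPKM at D2 and D4 (-2.04 ± 0.13). Of the neural markers, 5 were tested and 4 fell, led by Tubb3 (-3.15 ± 0.11) and Stmn2 (-2.82 ± 0.11), with Pax6 and Sox1 under 1 FPKM throughout. The 5 adipocyte markers summed to 4.67 to 7.93 FPKM at D8 and D10, against 3.07 to 5.66 FPKM at D2 and D4, and of 3 tested Fabp4 rose (1.63 ± 0.15). Of 10 germline genes, 9 were tested and 1, Prdm1, fell (-1.30 ± 0.21), a call lost without D2 replicate 1 (-0.96). The part of such cells in the differences was not tested.

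D6, the day between the sides, was outside the contrast and entered only the filter and the estimate of the spread. It was in most cases nearer to D2 and D4. Of the 3547 separated higher genes, D6 was nearer to D2 and D4 in 2427 (68.4%), nearer to D8 and D10 in 838 (23.6%), above all 8 libraries in 141 and below all 8 in 141. Of the 1913 separated lower genes, D6 was nearer to D2 and D4 in 1002 (52.4%), nearer to D8 and D10 in 681 (35.6%), above all 8 in 184 and below all 8 in 46. The median gene had gone 26.7% of the way at D6 if higher and 36.0% if lower.

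Cdh1 had 2.1 and 1.93 FPKM at D6 and Epcam 11.6 and 11.7 FPKM, both far below D8. Twist1 was still at 429 and 430.1 FPKM and Thy1 at 885 and 894 FPKM, and both Thy1 values lay above all 8 libraries compared. Some genes ran through an extreme at D6. Icam1, a leukocyte adhesion molecule, had 67.9 and 66.1 FPKM at D6, with 6.22 to 9.64 FPKM at D8 and D10, against 0.985 to 1.55 FPKM at D2 and D4 (log2 difference 1.96 ± 0.23, adjusted p = 5.22e-06). The chemokine Cxcl1 had 111 and 104 FPKM at D6, with 4.08 to 5.64 FPKM at D8 and D10, against 0.194 to 3.72 FPKM at D2 and D4 (1.09 ± 0.36), and its call was lost without D2 replicate 1 (0.60). Kif11 and Bub1 had their lowest point at D6. Kif11, a spindle motor, had 1.94 and 1.53 FPKM at D6, with 14.3 to 17.1 FPKM at D8 and D10, against 4.99 to 7.3 FPKM at D2 and D4 (log2 difference 1.24 ± 0.13, adjusted p = 1.61e-06). Bub1, a spindle checkpoint kinase, had 2.64 and 2.82 FPKM at D6, with 19.7 to 21.2 FPKM at D8 and D10, against 6.85 to 8.66 FPKM at D2 and D4.

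**Figure D5:**
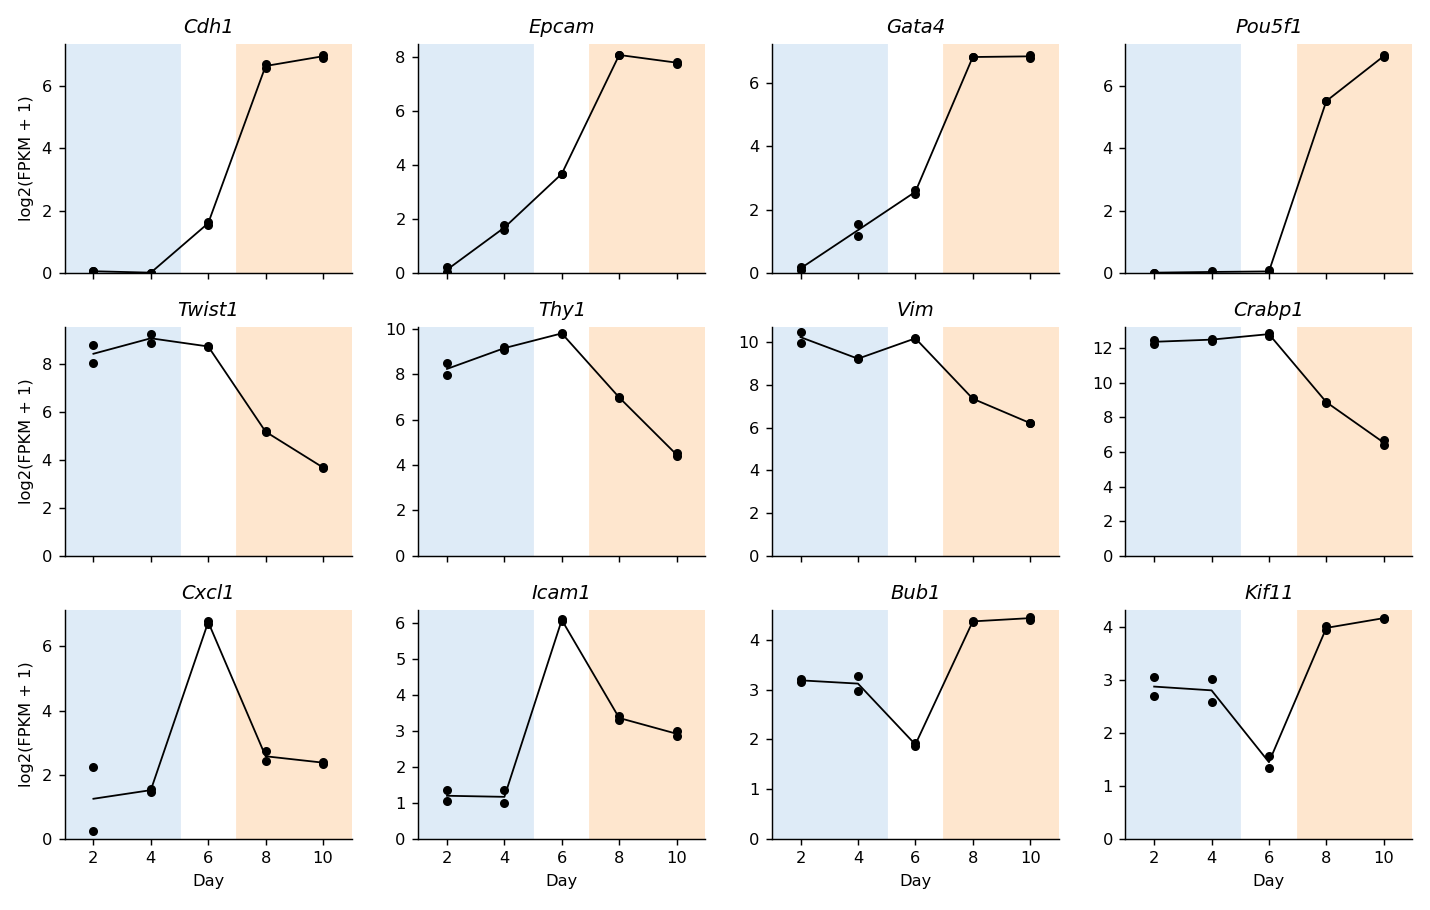
Level of 12 genes from D2 to D10 as log2(FPKM + 1), with 1 point per library, a line through the mean of each day, and shading for D2 and D4 (blue) and for D8 and D10 (orange). The top row is highest at D8 and D10, the middle row falls after D6, Cxcl1 and Icam1 peak at D6 and Bub1 and Kif11 have their lowest point there.

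The days within a side differed less than the sides, and more between D4 and D2 than between D10 and D8. At D4 against D2, 930 genes were called higher (5.66%) and 737 lower (4.48%). This balance depended on scaling: it was 733 against 944 with median-of-ratios scaling and 1284 against 549 with mitochondrial genes left out. At D10 against D8, 70 genes were higher (0.426%) and 400 lower (2.43%). These 2 contrasts use the same libraries as the main one, and the replicates of D2 and D4 lay further apart than those of D8 and D10, as given above.

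Between D4 and D2, the largest differences among separated genes included both risers and fallers of the main comparison. S100g had 185 and 165 FPKM at D4, against 0.653 and 0.462 FPKM at D2 (log2 difference 6.82 ± 0.09, adjusted p = 4.77e-13), and the water channel Aqp8 had 24.9 and 24.7 FPKM at D4, against 0.245 and 0.13 FPKM at D2 (log2 difference 4.44 ± 0.11, adjusted p = 8.39e-11). Sox17, with the values given above, differed likewise (log2 difference 4.61 ± 0.23, adjusted p = 5.91e-08). Sst, somatostatin, had 22.5 and 21.6 FPKM at D4, against 0.0854 and 0.0493 FPKM at D2 (log2 difference 4.43 ± 0.15, adjusted p = 1.98e-09) and was listed at 0 in all 4 libraries of D8 and D10. In the other direction, S100a4, a calcium-binding protein of motile fibroblasts, had 59.3 and 35.6 FPKM at D4, against 1011 and 1043 FPKM at D2 (log2 difference -4.45 ± 0.22, adjusted p = 6.14e-08), and the metallothionein Mt3 had 31.5 and 24.1 FPKM at D4, against 312 and 296 FPKM at D2 (log2 difference -3.42 ± 0.25, adjusted p = 1.12e-06).

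Between D10 and D8, several genes that fell between the sides were lower at D10 than at D8. S100a4 had 1.67 and 2.36 FPKM at D10, against 27.9 and 31.5 FPKM at D8 (log2 difference -3.36 ± 0.22, adjusted p = 2.36e-06), and Agtr2, an angiotensin receptor, had 1.78 and 2.43 FPKM at D10, against 32.0 and 32.3 FPKM at D8 (log2 difference -3.42 ± 0.37, adjusted p = 8.47e-05). Thy1 (log2 difference -2.52 ± 0.15, adjusted p = 1.17e-06) and Twist2 (log2 difference -2.48 ± 0.15, adjusted p = 1.17e-06) were lower at D10 too. Of the genes that rose between the sides, Ly6g6c had 1.53 and 2.6 FPKM at D10, against 17.5 and 18.6 FPKM at D8 (log2 difference -2.65 ± 0.15, adjusted p = 1.05e-06), and Lcn2, lipocalin 2, had 8.84 and 9.1 FPKM at D10, against 1.11 and 0.716 FPKM at D8 (log2 difference 2.39 ± 0.13, adjusted p = 9.13e-07).

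Among separated genes outside the protein-coding class with at least 10 FPKM on the higher side, the largest differences on the higher side belonged to predicted transcripts listed at 0 in all 4 libraries of D2 and D4. Gm44379 had 17.0 and 15.7 FPKM at D8 and 36.5 and 35.2 FPKM at D10 (adjusted p = 8.46e-15), and 2210409E12Rik had 19.5 and 23.3 FPKM at D8 and 24.6 and 26.4 FPKM at D10 (adjusted p = 1.19e-13). On the lower side they belonged to pseudogenes of ribosomal protein genes, whose levels are uncertain for the reason given above.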

How the data were processed

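RNA of 18 libraries, 2 for each of 9 groups, was sequenced on an Illumina NovaSeq instrument, per the labels. Per the submitters' processing notes, the authors used fastp 0.20.1, HISAT2 2.2.1 with mm10 and StringTie 2.0. The deposited values are FPKM for 55401 Ensembl genes. The labels do not name the unit, which was read from the values, and the annotation release is not given in the sources used here. GENCODE M21, which is built on GRCm38 (mm10), gave positions and, for 55141 identifiers, symbols, and RefSeq (GRCm38.p6) the promoters. Depth was estimated from the steps of single-exon genes.

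limma 3.58.1 (R 4.3.3) was run on log2(FPKM + 1) of all 18 libraries with a mean for each group, leaving 9 residual degrees of freedom. The contrast was the mean of D8 and D10 minus that of D2 and D4, two-sided, adjusted by Benjamini-Hochberg over 16439 genes. No count model was used, since the files hold no counts. The procedure was tested on simulated data.

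The members and the gene lists were chosen with earlier results of these data known. Genes were named by a rule. It takes the 10 largest differences per direction with at least 10 FPKM on the higher side, the 5 largest absolute differences, and up to 6 called members of each list per direction with members given as not called. It also takes a fixed set of 21 genes and the extremes at D6, within each side and outside the coding class; not every such gene is printed. Alternatives were pseudocounts of 0.1 and 5, other filters, 4 scalings, eBayes with a trend, group weights, smaller fits, single days, a replicate block, no fold threshold and leaving out each library. Figures were drawn with matplotlib 3.10.9.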

Additional observations from a re-analysis of the deposited data

How the results depend on the processing

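The 5704 genes called between the sides became 7986 with a pseudocount of 0.1 and 2601 with one of 5 (1363 higher and 1238 lower), and 12292 without a fold threshold (7677 higher and 4615 lower). Genes called higher numbered 2404 with quantile normalization and 2356 with the length trend removed. Leaving out 1 library gave 3373 to 3921 higher and 2051 to 2113 lower genes. For D4 against D2, 1667 called genes became 2701 with a pseudocount of 0.1 (1571 and 1130), 620 with one of 5 (306 and 314) and 5142 without a fold threshold (3108 and 2034). Without D2 replicate 2, 999 were higher and 1119 lower, and leaving out 1 library gave 798 to 1076 higher and 649 to 1119 lower. For D10 against D8, 470 called genes became 822 with a pseudocount of 0.1 (156 and 666), 124 with one of 5 (12 and 112) and 1722 without a fold threshold (520 and 1202). Separated genes numbered 5849 higher and 4043 lower with median-of-ratios scaling, 4922 and 4668 with quantile normalization, and 6600 and 3097 with mitochondrial genes left out. The cause of these shifts was not tested.

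Of the named genes called between the sides, 134 of 191 kept their call and direction under every setting that included them, of 27 tried. Genes that a filter or scaling left out were tried under fewer. A pseudocount of 5 ended 39 calls, the length trend removed 20, quantile normalization 16 and median-of-ratios scaling 9. With single days, 2 genes that were not called between the sides changed sign and were called. Prom1 was lower at D8 against D4 (-1.05) and at D10 against D4 (-1.56), and Sox2 at D10 against D2 (-1.22).

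The correlation of replicate differences between days ran from -0.227 (D2 and D4) to 0.0742 (D2 and D8). With 2 libraries a day, these values cannot settle whether libraries of different days were paired. A replicate block gave 3633 higher and 2075 lower genes between the sides, 934 and 733 for D4 against D2, and 70 and 395 for D10 against D8. With the D2 numbers crossed, an alternative chosen after seeing the data, D4 against D2 gave 932 and 741. Only 2 libraries a day, and depths of 16500000 to 61000000 read pairs, limit what can be seen in genes under about 1 FPKM.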
